A study of Mus musculus with 6 samples.

Results

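The genes described here are those of the cytosolic ribosomal proteins, the protein part of the ribosomes that work outside mitochondria. They were taken from the deposited gene table by name: every protein-coding gene whose symbol is Rpl or Rps followed by a number, by a or by p0 to p2, with at most 1 closing letter a, l or x. The rule found 80 of the 35122 genes in the table, 49 of the large subunit (Rpl) and 31 of the small subunit (Rps), and used no measured value. RNA was sequenced from the adipocyte fraction, the floating layer of collagenase-digested epididymal fat, of 3 control mice (PU.1 fl/fl) and 3 aPU.1KO mice (AdipoqCre with PU.1 fl/fl), 1 library per mouse. All were males on a chow diet with a labelled age of 10 to 11 months. The floxed line was on a C57BL/6 background. The paper does not state the background of the Adipoq-Cre line. Both groups carry the floxed allele of Spi1, which encodes the transcription factor PU.1, and only the aPU.1KO mice carry the Cre transgene, which the adiponectin (Adipoq) promoter drives in adipocytes. Other cells of the fraction keep an intact gene, and no group carried Cre alone.

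Ribosomal proteins are made in near equal numbers, 1 copy of most per ribosome, and their mRNAs are among the most abundant short mRNAs of any cell. Their transcripts usually start with a run of pyrimidines, the TOP element, through which the kinase mTORC1 sets how well they are translated. Because these mRNAs are so abundant, they have been copied back into the genome many times, and such intronless copies (processed pseudogenes) can share reads with the gene they came from.

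Depth was 20550252 to 24310144 counts per library in the aPU.1KO mice and 22770714 to 69283842 in the control mice. Spi1 was at 24.3, 6.35 and 26.7 CPM (counts scaled to a common library size) in control mice 1, 2 and 3 and at 3.20, 1.22 and 4.17 CPM in aPU.1KO mice 1, 2 and 3 (adjusted p = 0.0788 with edgeR and 7.65e-05 with DESeq2). Over 14 macrophage markers the summed level was 1598, 516 and 1530 CPM in control mice 1, 2 and 3 and 275 to 355 CPM in the aPU.1KO mice, and over 10 adipocyte markers it ranged from 53349 to 62073 CPM in the control mice and from 68974 to 79352 CPM in the aPU.1KO mice. The sums also did not overlap for 8 markers of adipose progenitors (1286 to 1745 CPM in the control mice, 715 to 1024 CPM in the aPU.1KO mice), 5 of hepatocytes (36.9 to 58.0 and 17.8 to 23.7 CPM) and 7 of T cells (4.20 to 5.71 and 2.03 to 2.46 CPM). Single markers did not all follow their list. A log2 fold change (aPU.1KO over control) above 0 was found for 9 of the 10 adipocyte markers, and Lep was at -0.77. Of the 14 macrophage markers, 2 were above 0, Cd163 (0.29) and Mertk (0.056). No marker of these lists was at 0 in every mouse. In RNA from a whole fraction, fewer cells of a type and less RNA per cell cannot be told apart, and the part these differences play in the levels given here was not tested.

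The member that stood apart was Rpl29, a small basic protein of the large subunit, and its values have to be read with those of a copy of it. Rpl29 lies at chr9:106429454-106431568 (GRCm38). Gm8210 is annotated as a processed pseudogene at chr1:43189156-43189638, and its 483 bases match the coding part of the Rpl29 mRNA, stop codon included, at all but 3 positions (99.4% identity). Counted from the A of the Rpl29 start codon, the substitutions are C72A, C300T and T423C, with the base of Rpl29 first. Each falls on the last base of its codon and leaves the encoded amino acid the same. The stretches around the differences are shown because, within the shared part, reads can be told apart only there. The capital marks the base that differs, and the sequences are GENCODE M21 transcripts:
Rpl29 bases 58 to 86: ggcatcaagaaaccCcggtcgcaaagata
Gm8210 bases 58 to 86: ggcatcaagaaaccAcggtcgcaaagata
Rpl29 bases 286 to 314: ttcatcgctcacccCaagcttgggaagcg
Gm8210 bases 286 to 314: ttcatcgctcacccTaagcttgggaagcg
Rpl29 bases 409 to 437: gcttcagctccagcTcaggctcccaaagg
Gm8210 bases 409 to 437: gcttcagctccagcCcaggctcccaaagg
Between the first and the second of these positions the sequences are identical over 227 bases.

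Rpl29 was at 144, 135 and 150 CPM in control mice 1, 2 and 3 and at 105, 118 and 78.9 CPM in aPU.1KO mice 1, 2 and 3. Every aPU.1KO mouse was below every control mouse, and the mean was 29.6% lower, at 143 ± 7.37 CPM in the control mice against 101 ± 19.9 CPM in the aPU.1KO mice (SD, n = 3 each). The log2 fold change was -0.51 (SE 0.15), with an edgeR adjusted p of 0.105 and an unadjusted p of 0.0115. With DESeq2 the log2 fold change was -0.52 and the adjusted p 0.0248, so Rpl29 passed the threshold of 0.05 with 1 tool and missed it with the other.

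Gm8210 went the other way. It had 6, 1 and 3 counts in control mice 1, 2 and 3 against 330, 286 and 584 counts in aPU.1KO mice 1, 2 and 3, which is 0.083, 0.044 and 0.12 CPM against 16.8, 12.9 and 27.7 CPM. Summed over the 3 mice of each group, this was 10 counts in the control mice and 1200 in the aPU.1KO mice. Scaled to a common library size, the ratio of the groups was 230.2 (95% exact interval 125 to 481, counting error only). Gm8210 was 1 of 3 genes in the whole table with an edgeR adjusted p under 0.01 (adjusted p = 0.00370). The pseudogene held 0.057%, 0.032% and 0.079% of the counts of the pair in control mice 1, 2 and 3, and 13.8%, 9.89% and 25.97% in aPU.1KO mice 1, 2 and 3. The Wilson 95% intervals of these shares ended at 0.233% or below in the control mice and began at 8.85% or above in the aPU.1KO mice.

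The order of the aPU.1KO mice for the gene and the pseudogene was opposite: mouse 3 had the least Rpl29 and the most Gm8210, and mouse 2 the most Rpl29 and the least Gm8210. Added together, the pair was at 144, 135 and 150 CPM in control mice 1, 2 and 3 and at 122, 131 and 107 CPM in aPU.1KO mice 1, 2 and 3. The sum still did not overlap between the groups, but its mean was 16.3% lower in aPU.1KO mice where that of Rpl29 alone was 29.6% lower. The mean of Rpl29 fell by 42.4 CPM and that of Gm8210 rose by 19.0 CPM. With Rpl29 and all its near-identical copies summed (at least 95% identity over at least 80% of the shorter transcript), the log2 fold change was -0.25 and the adjusted p 0.164 in edgeR, and -0.27 and 0.118 in DESeq2. The DESeq2 call of Rpl29 was therefore not present once reads of its copies were counted with it. Which locus the reads of Gm8210 came from was not tested, nor whether the Rpl29 gene itself has the same bases in both groups at these positions, so the values of the gene and the pseudogene are those that the counting assigned.

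**Figure D1:**
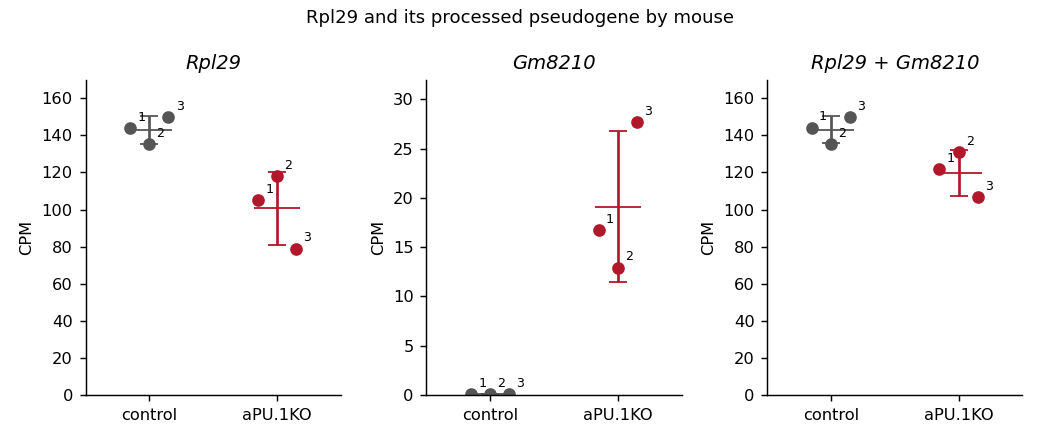
Levels of Rpl29, of the processed pseudogene Gm8210 and of their sum in CPM (linear axes from 0, a smaller range for Gm8210). Each point is 1 mouse, numbered 1 to 3 within its group, and the bars are the mean and SD of 3 mice. The aPU.1KO mice are below the control mice for Rpl29, above them for Gm8210, at 12.9 to 27.7 CPM, and closer to them for the sum.

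The other copies that could be tested had no such difference called. Of 18 near-identical copies of ribosomal protein genes that passed the filter on low counts, 1 was called by edgeR at an adjusted p under 0.05, and that was Gm8210. The next lowest adjusted p was 0.113, for Gm12366, a copy of Rps2 that ranged from 0.32 to 0.48 CPM in the control mice and from 0.66 to 0.99 CPM in the aPU.1KO mice. The 6 other members that lie on chromosome 9 (Rpl4, Rpl14, Rplp1, Rps25, Rps27l and Rpsa) had log2 fold changes between -0.0018 and 0.26.

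Of the 80 members, 77 had enough counts to be tested. The 3 others were the paralogs Rpl3l, known from heart and skeletal muscle, and Rpl10l and Rpl39l, known from testis, which had at most 16 counts in any library. The remaining tested paralog, Rps27l, known as a p53 target, was at 75.7, 68.7 and 83.4 CPM in control mice 1, 2 and 3 and at 100, 82.0 and 82.2 CPM in aPU.1KO mice 1, 2 and 3. Its groups overlapped, and its log2 fold change was 0.22 (edgeR adjusted p = 0.282), or 0.10 without aPU.1KO mouse 1 and 0.14 without control mouse 2. Rps4l is annotated as a pseudogene and was not a member.

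No member was called at an adjusted p under 0.05 by edgeR, where 0.237% of all 13925 tested genes were (33 genes), nor by limma-voom, and DESeq2 called 1 (Rpl29) of the 79 members it gave an adjusted p. With DESeq2, 7.48% of all genes were called lower and 3.51% higher, and no member was called higher. At an unadjusted p under 0.05 in edgeR, 13 of the 77 members (16.9%) were higher in aPU.1KO mice, against 11.9% of all tested genes, and 1 (1.30%), Rpl29, was lower, against 13.7% of all tested genes.

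The log2 fold changes of the members lay in a narrow band. Rpl29 aside, the 76 others were between -0.13 and 0.30, with SEs over all 77 from 0.068 to 0.43 and a median SE of 0.090. The median was 0.10 over the members and 0.014 over all tested genes, and the quartiles of the members were 0.048 and 0.18 where those of all genes were -0.25 and 0.19. A log2 fold change above 0 was found for 64 of the 77 members (83.1%) and for 52.0% of all tested genes. Both subunits had the same median, 0.10 over 46 large-subunit genes and 0.10 over 31 small-subunit genes, and at an unadjusted p under 0.05 11 large-subunit genes (23.9%) and 2 small-subunit genes (6.45%) were higher, against 11.9% of all tested genes; the subunits were not tested against each other. In 24 members every aPU.1KO mouse was above every control mouse (31.2%, against 16.7% of all tested genes), and in 1, Rpl29, every aPU.1KO mouse was below (1.30%, against 15.5%).

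**Figure D2:**
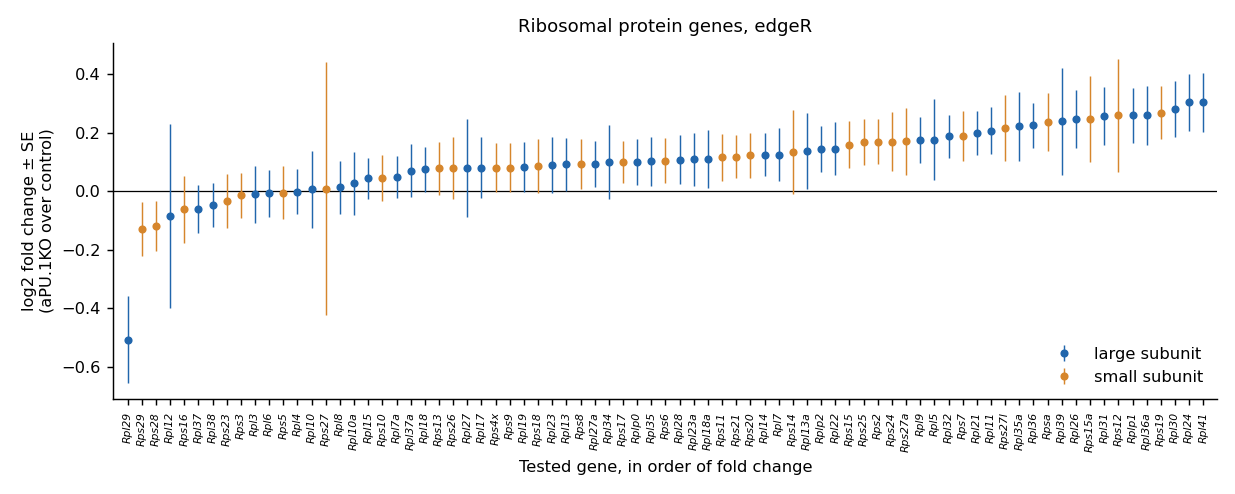
Log2 fold change of aPU.1KO over control with its standard error (edgeR, vertical axis) for the 77 tested ribosomal protein genes in order of fold change, coloured by subunit. Rpl29 is at -0.51, and the others lie between -0.13 and 0.30, most of them a little above 0.

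This small excess above 0 changed with the mice included and with how length was treated. Control mouse 2 was the lowest of the 6 mice in 62 of the 77 members, and the median member was 0.17 below its mean over the 6 mice on the log2 scale there, while the medians of the other mice were 0.0060, 0.0060, 0.038, 0.096 and 0.025 (control 1 and 3, then aPU.1KO 1 to 3). It was also the control mouse with the lowest macrophage sum and the lowest Spi1 level given above. Without it the median log2 fold change was 0.053, and edgeR gave an unadjusted p under 0.05 to 0 members that were higher, where 11.0% of all tested genes were. That count was also 0 without control mouse 1, whose library is the deepest, but there only 4.15% of all tested genes were higher. It was 1 without aPU.1KO mouse 2 (10.0% of all tested genes) and 3 without aPU.1KO mouse 1 (8.83%). The members are short: their median transcript was 780 bases where that of all tested genes was 2892. The 951 tested genes outside the rule with a transcript of at most 1000 bases had a median log2 fold change of 0.15, above that of the members. When counts were offset for transcript length and GC content, the median of the members was -0.071 and that of all tested genes -0.019, 56 of 77 members (72.7%) and 53.1% of all tested genes were below 0, and at an unadjusted p under 0.05 edgeR gave 0 that were higher and 5 that were lower (Rps29, Rpl37, Rpl29, Rpl38 and Rps28), against 8.83% higher and 15.0% lower of all tested genes. Rpl29 was the lowest under both treatments, at -0.70 with the offsets.

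**Figure D3:**
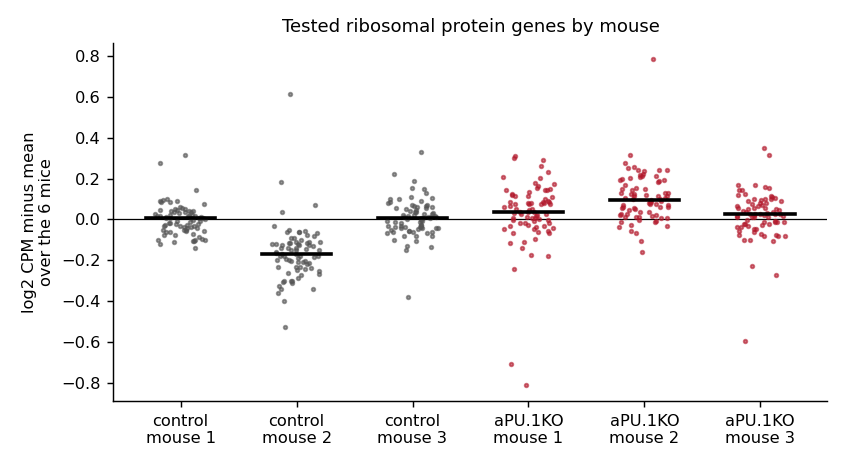
Log2 CPM of each of the 77 tested ribosomal protein genes minus its mean over the 6 mice (vertical axis), for each mouse, with the median as a black line. The median of control mouse 2 is at -0.17, and the medians of the other 5 mice lie between 0.0060 and 0.096.

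**Figure D4:**
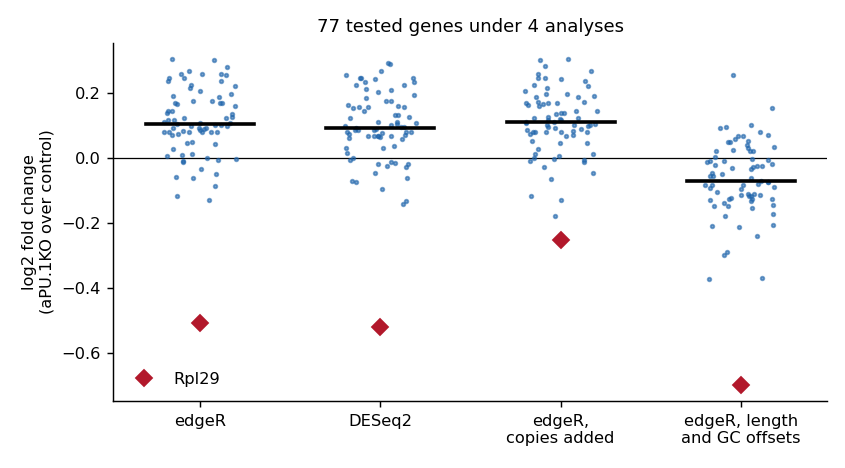
Log2 fold changes of the 77 tested genes (points, spread sideways for legibility) under 4 analyses, with the median as a black line and Rpl29 as a red diamond. The median moves from 0.10 with edgeR to -0.071 with offsets for length and GC content, and Rpl29 moves from -0.51 to -0.25 when its near-identical copies are added.

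As a share of all counts of a library, the 80 members together did not separate the groups. They took 1.51%, 1.30% and 1.55% in control mice 1, 2 and 3 and 1.43%, 1.42% and 1.48% in aPU.1KO mice 1, 2 and 3. The Wilson 95% interval of each share was within 0.0052 percentage points of it, which covers counting error only. The means were 1.45% ± 0.136 in control and 1.44% ± 0.0333 in aPU.1KO mice (SD, n = 3 each). Large-subunit genes took 0.92%, 0.79% and 0.96% in the control mice and 0.89%, 0.87% and 0.90% in the aPU.1KO mice, and the ratio of large-subunit to small-subunit counts was 1.57 to 1.60 in control and 1.56 to 1.63 in aPU.1KO mice, so both ranges overlapped. The TMM factors that scale the libraries were 1.05, 1.00 and 1.08 in control mice 1, 2 and 3 and 0.96, 0.91 and 1.01 in aPU.1KO mice 1, 2 and 3. The shares above are not scaled by these factors, while the CPM and the log2 fold changes are. Leaving the members out when these factors were computed left the edgeR counts at an unadjusted p under 0.05 at 13 higher, where 12.0% of all tested genes were, and 1 lower.

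The stalk is the arm of the large subunit that binds the translation factors. Rplp0, its base, was at 465, 455 and 444 CPM in control mice 1, 2 and 3 and at 481, 506 and 475 CPM in aPU.1KO mice 1, 2 and 3. Rplp1, one of its outer proteins, was at 382, 342 and 402 CPM in control mice 1, 2 and 3 and at 446, 467 and 434 CPM in aPU.1KO mice 1, 2 and 3. Rplp2, the partner of Rplp1, was at 216, 203 and 231 CPM in control mice 1, 2 and 3 and at 237, 241 and 240 CPM in aPU.1KO mice 1, 2 and 3. In all 3 genes every aPU.1KO mouse was above every control mouse, as in 31.2% of the members and 16.7% of all tested genes. The log2 fold change was 0.10 for Rplp0, 0.26 for Rplp1 and 0.14 for Rplp2, with edgeR adjusted p of 0.465, 0.148 and 0.303. The lowest values with 1 mouse left out were 0.069, 0.19 and 0.087. With offsets for length and GC content the signs of Rplp0 and Rplp2 turned (-0.019 and -0.085) and Rplp1 was at 0.040. Rpsa, a small-subunit protein also known as the laminin receptor, was at 422, 399 and 396 CPM in control mice 1, 2 and 3 and at 446, 532 and 458 CPM in aPU.1KO mice 1, 2 and 3. Its groups did not overlap either, with a log2 fold change of 0.24 and an adjusted p of 0.191.

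The 8 members with the largest positive log2 fold changes among those with an average log2 CPM of at least 4 were Rpl41, Rpl24, Rpl30, Rps19, Rpl36a, Rplp1, Rpl31 and Rps15a, at 0.25 to 0.30. Rpl41, a very short basic peptide at the interface of the subunits, was at 311, 272 and 330 CPM in control mice 1, 2 and 3 and at 365, 398 and 363 CPM in aPU.1KO mice 1, 2 and 3. Rpl24, which forms a bridge between the subunits, was at 201, 185 and 202 CPM in control mice 1, 2 and 3 and at 255, 256 and 214 CPM in aPU.1KO mice 1, 2 and 3. In both the groups were apart, with log2 fold changes of 0.30 (SE 0.10) and 0.30 (SE 0.099) and edgeR adjusted p of 0.127 and 0.123. Rpl30 was at 162, 145 and 167 CPM in control mice 1, 2 and 3 and at 195, 206 and 176 CPM in aPU.1KO mice 1, 2 and 3. Rps19, the gene most often mutated in Diamond-Blackfan anaemia, was at 182, 174 and 193 CPM in control mice 1, 2 and 3 and at 232, 229 and 199 CPM in aPU.1KO mice 1, 2 and 3. Rpl31 and Rpl36a also had every aPU.1KO mouse above every control mouse, while the ranges of Rps15a overlapped. The lowest adjusted p among the 8 was 0.123. With offsets for length and GC content Rps15a was at 0.25, and the other 7 were between 0.022 (Rpl36a) and 0.10 (Rpl24). The transcript length used for Rps15a was 5130 bases, the median of its principal transcripts, so its offset is that of a long gene. With copies added, Rpl36a was at 0.17 and Rpl31 at 0.19. Without control mouse 2, Rps15a was at 0.11, Rpl31 at 0.15 and Rpl36a at 0.17.

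The 8 members with the lowest log2 fold changes, under the same limit on level, were Rpl29, Rps29, Rps28, Rps16, Rpl37, Rpl38, Rps23 and Rps3. Apart from Rpl29 they lay between -0.13 and -0.014, and in each of the 7 the groups overlapped. With offsets for length and GC content these 7 lay between -0.37 (Rps29) and -0.10 (Rps3), with an edgeR adjusted p of 0.0823 or more. Rps29, a zinc-binding protein of the small subunit, was at 110, 106 and 107 CPM in control mice 1, 2 and 3 and at 87.0, 103 and 106 CPM in aPU.1KO mice 1, 2 and 3. Only aPU.1KO mouse 1 was well below the others there. Rpl38, known for its part in the translation of Hox mRNAs, was at 86.3, 78.4 and 87.9 CPM in control mice 1, 2 and 3 and at 82.7, 83.4 and 78.2 CPM in aPU.1KO mice 1, 2 and 3. Rps3, at the mRNA entry of the small subunit, was at 268, 248 and 271 CPM in control mice 1, 2 and 3 and at 262, 266 and 251 CPM in aPU.1KO mice 1, 2 and 3.

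Levels were compared between genes as CPM per kilobase of coding sequence, over the control mice. The median of the 77 tested members was 350 and the 5 highest were Rpl41 (4053), Rplp1 (1098), Rpl39 (1036), Rpl37a (768) and Rps29 (642). Rpl41 has the shortest coding sequence, 75 bases, and since reads outside the coding part are also counted, this scale raises the shortest genes. The 5 lowest were Rpl12 (10.1), Rpl5 (19.7), Rps12 (24.1), Rps27 (29.2) and Rpl27 (33.1).

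In all of these but Rpl12, the counting placed most counts of the family in a copy. Rps27 was at 5.27 to 10.5 CPM in the control mice while Rps27rt, an intronless copy, was at 130 to 182 CPM. Rps12 was at 7.18 to 11.5 CPM and Rps12-ps3 at 233 to 257 CPM. Rpl5, which with Rpl11 binds the p53 regulator Mdm2, was at 16.9 to 18.3 CPM and Gm15500 at 257 to 284 CPM. Rpl27 was at 11.3 to 15.3 CPM and Rpl27-ps3 at 140 to 163 CPM. With copies added, Rps27 was at 660, Rps12 at 651, Rpl27 at 406 and Rpl5 at 323 CPM per kilobase, on both sides of the median of 387 over the members so counted. Rpl12 stayed the lowest, at 19.2, where the next lowest member was at 193. In 12 members at least 10% of the counts of the family were in copies, and in 65 less. For these 12 (Rpl5, Rpl10, Rpl12, Rpl27, Rpl27a, Rpl28, Rpl31, Rpl36a, Rps12, Rps16, Rps23 and Rps27) the level of the gene alone is uncertain. The exons of 13 members also overlap those of a gene on the other strand (Rpl5 and Rpl12 among the lowest, Rpl31 and Rps28 among those named above), and whether the libraries kept strand is not given in the sources used here, so reads of such pairs cannot be told apart.

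**Figure D5:**
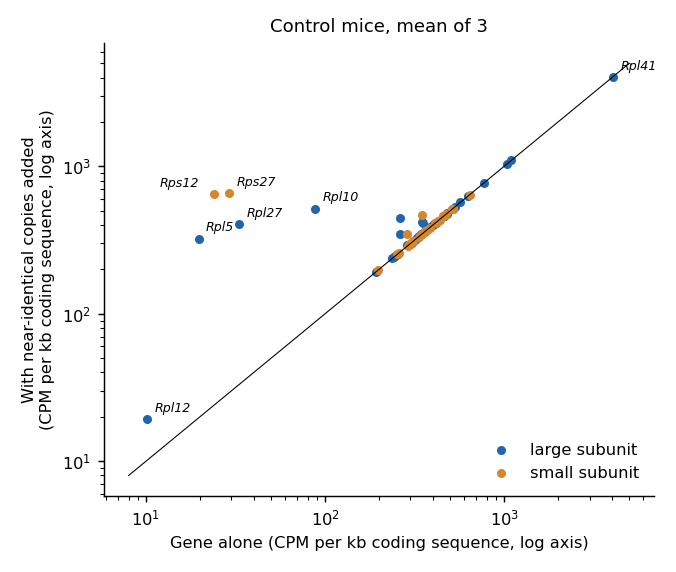
Mean level of the 77 tested genes in the control mice, as CPM per kilobase of coding sequence on log axes, for the gene alone (horizontal) and with its near-identical copies added (vertical). The line marks equal values. Rps27, Rps12, Rpl5, Rpl27 and Rpl10 lie far above it, and Rpl12 stays lowest at 19.2.

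With the copies added, Rpl29 moved to -0.25 as given above, and over all 77 members 65 were above 0 with a median log2 fold change of 0.11. edgeR then gave an unadjusted p under 0.05 to 11 members that were higher (12.0% of all tested genes) and 1 that was lower (13.8% of all tested genes), and neither edgeR nor DESeq2 gave any member an adjusted p under 0.05.

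The start of the gene was read for the 57 tested members that matched an entry by symbol in a RefSeq table of promoters (GRCm38.p6, 250 bases before to 50 after each annotated start), among 10653 tested genes with an entry. Rpl29 matched no entry, so its start was not read. A C followed by 4 pyrimidines, the core of a TOP start, began within 5 bases of the annotated start in 28 of the 57 (49.1%) and in 23.7% of all tested genes with an entry. The windows of 3 named members are shown as examples, 15 bases before the annotated start and 15 from it on, with the pyrimidine run in capitals:
Rpl38, chr11:114668565-114668594, plus strand: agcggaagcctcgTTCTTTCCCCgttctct
Rplp2, chr7:141447636-141447665, plus strand: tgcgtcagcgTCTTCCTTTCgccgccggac
Rps15a, chr7:118116133-118116162, minus strand: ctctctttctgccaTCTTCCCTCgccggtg
PU.1 belongs to the ETS family of factors, which bind sites with a GGAA core, so 2 such motifs were searched on both strands of the 300 bases. CCGGAAG, the form that many ETS factors bind, was present in 24 of the 57 members (42.1%) and in 19.0% of all tested genes with an entry. GAGGAAGT, the purine-rich form bound by PU.1, was present in 3 members (5.26%, Rpl13a, Rpl35 and Rpl36a) and in 3.77% of all tested genes with an entry. The motifs differ in the bases before the core and cannot share 1 core. A match describes the letters of this window and is not a bound site.

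Genes that work with the ribosomal proteins were listed by role, and none of them passed an adjusted p of 0.05 in edgeR. Over 8 ribosomal proteins outside the naming rule the median log2 fold change was 0.12. Among them Rpl22l1, a paralog of Rpl22, had a log2 fold change of 0.28 (edgeR adjusted p = 0.227). Among 17 elongation factors and other TOP mRNAs, 3 (17.6%) had an unadjusted edgeR p under 0.05 and a higher level in aPU.1KO mice, against 11.9% of all tested genes, none was lower, and the median was 0.10. Btf3 and Naca, which pair in the complex that meets the nascent chain at the ribosome, had log2 fold changes of 0.31 and 0.28, with edgeR adjusted p of 0.0825 and 0.0878 and DESeq2 adjusted p of 0.00794 and 0.00705.

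Making ribosomes takes RNA polymerase I, assembly factors and chaperones that hold single ribosomal proteins. Of 15 genes of polymerase I transcription, 2 (13.3%) had an unadjusted edgeR p under 0.05 and a higher level, close to the 11.9% of all tested genes: Polr1d, a shared subunit, at a log2 fold change of 0.18, and Taf1b, of the promoter factor, at 0.26 (edgeR adjusted p = 0.167 and 0.169). Of 52 assembly factors, 3 (5.77%) did, below the 11.9% of all tested genes, and the median of the list was 0.063. Rrs1 was at 21.6, 20.7 and 22.6 CPM in control mice 1, 2 and 3 and at 27.2, 31.5 and 30.9 CPM in aPU.1KO mice 1, 2 and 3, so the groups were apart. Its log2 fold change was 0.47 and that of Nop10, a protein of the pseudouridylation complex, 0.37 (edgeR adjusted p = 0.0760 and 0.0814, DESeq2 adjusted p = 0.00339 and 0.0214). Of 6 chaperones, 1 (16.7%) did, Bccip at 0.18 (edgeR adjusted p = 0.152), and the next lowest p was that of Tsr2, the chaperone of Rps26, at 0.18 (adjusted p = 0.289).

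The list of mTORC1 and its control of TOP mRNAs also held Maf1 and the Myc family factors Myc, Mycn and Mycl. Of its 16 tested genes, 3 (18.8%) had an unadjusted edgeR p under 0.05 and a higher level, against 11.9% of all tested genes. Eif4ebp1, the repressor of cap-dependent translation that mTORC1 inactivates, was at 137, 178 and 125 CPM in control mice 1, 2 and 3 and at 219, 225 and 205 CPM in aPU.1KO mice 1, 2 and 3. Mycl, a Myc family factor, was at 2.63, 4.11 and 1.98 CPM in control mice 1, 2 and 3 and at 7.83, 21.0 and 6.82 CPM in aPU.1KO mice 1, 2 and 3. In both the groups were apart, with log2 fold changes of 0.56 and 2.04, edgeR adjusted p of 0.0866 and 0.0856 and DESeq2 adjusted p of 0.0117 and 0.000812. The mRNA counts say nothing of how well any of these mRNAs was translated.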

How the data were processed

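The authors quantified reads per transcript with Salmon and summed transcripts to genes, and the deposited values are estimated counts that are whole numbers, so none was rounded here. The Salmon version, its options beyond mapping validation and the annotation are not given in the sources used here; per the labels the build was GRCm38. Of the 35122 identifiers, 35102 matched GENCODE M21 (GRCm38), which gave symbols, coordinates and lengths, and the unmatched ones held 0.0019% of counts. The age is that of the labels (10 to 11 months); the paper puts it higher.

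The main test was the quasi-likelihood test of edgeR 4.0.16 in R 4.3.3, with its defaults, after filterByExpr and TMM scaling, and p-values were adjusted by Benjamini-Hochberg over all 13925 tested genes. Log2 fold changes are signed as aPU.1KO over control, their SE came from the coefficient and the F statistic, and CPM are scaled by the TMM factors. DESeq2 1.42.0 and limma-voom (limma 3.58.1) were alternatives, beside other scalings and filters, robust and legacy = FALSE fits, control library 1 thinned, offsets from a loess fit on transcript length and GC content, near-identical copies added to their gene, and each mouse left out. DESeq2 with copies added was chosen after seeing the data. Copies were found with BLAST 2.17.0: 708 genes were added to 76 members. Figures used matplotlib 3.10.9 in Python 3.11.15.

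The members and the gene lists were chosen with earlier results of these data known. Genes are named by a rule: Rpl29, called members, the 8 largest rises and falls at an average log2 CPM of at least 4, the 5 highest and 5 lowest levels per coding length, the paralogs, the stalk proteins and Rpsa, and per list the called genes or else the 2 of lowest p. On counts simulated for this comparison from 13925 genes, edgeR called 67 of 100 genes changed by a fold of 2, 98 of 100 changed by a fold of 4, and 12 unchanged genes. Mice are numbered by label order within a group. No 2 libraries of a group were duplicates (chi-square per degree of freedom 20.4 or more). Total counts were at least 20550252 per library, and the p-values measure the spread between mice. The values of 1 listed gene are not reported here.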

Additional observations from a re-analysis of the deposited data

How the results depend on the processing

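The count of members at an adjusted p under 0.05 was 0 in edgeR under every scaling, filter and left-out mouse, and 1 with DESeq2. The count higher at an unadjusted p under 0.05, 13 in edgeR, was 15 of 80 members with DESeq2 (7.63% of all genes). In edgeR it was 6 with at least 10 counts in every library (10.9% of all tested genes), 6 with no filter (8.12%) and 0 with length and GC offsets. The offsets also gave 5 lower in place of 1 and a median log2 fold change of -0.071 in place of 0.10. Leaving out 1 mouse gave 0 to 11 higher: 0 without control mouse 1, 0 without control mouse 2, 8 without control mouse 3 (7.17% of all tested genes), 3 without aPU.1KO mouse 1, 1 without aPU.1KO mouse 2 and 11 without aPU.1KO mouse 3 (13.3%).

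Rpl29 was at -0.52 with DESeq2 (adjusted p = 0.0248), and its log2 fold change without 1 mouse was -0.64 to -0.36, negative in all 19 alternatives, with adjusted p of 0.0248 to 0.367. Spi1 was at -2.75 with DESeq2 (adjusted p = 7.65e-05) and at -3.17 without control mouse 2 (adjusted p = 0.0123), with a range of -3.17 to -2.39 over the mice left out. DESeq2 called 2 genes of the elongation factor list, 2 assembly factors and 2 genes of the mTORC1 list (Eif4ebp1 and Mycl). Each list had 0 in edgeR, and with DESeq2 3.51% of all genes were called higher. The mean share of the members in aPU.1KO minus control mice was -0.0070 percentage points of all counts and 0.035 points of nuclear protein-coding counts. The first was under the SD of either group; the second was under that of the control mice (0.138) and above that of the aPU.1KO mice (0.0285).

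Of 487 log2 fold changes of the 27 named tested members under the alternatives, 463 kept their sign and their side of the threshold, 23 changed sign and Rpl29 passed the threshold with DESeq2. With length and GC offsets these were Rpl37a (-0.15), Rps27 (-0.29), Rpl27 (-0.11), Rps27l (-0.025), Rplp0 (-0.019) and Rplp2 (-0.085). Rps27, whose reads lie mostly in a copy, was also at -0.0058 with RLE, -0.013 with at least 10 counts, -0.010 with no filter, -0.012 with DESeq2 and -0.080 with control library 1 thinned. Rps23 was at 0.012 with copies added. Without 1 mouse, Rps27 ranged from -0.51 to 0.33, Rpl27 from -0.041 to 0.20, Rpl12 from -0.27 to 0.16, Rps16 from -0.17 to 0.013, Rps23 from -0.10 to 0.0040 and Rps3 from -0.064 to 0.013. The cause was not tested. The paper describes littermate controls but does not say which of these mice shared a litter. The labels give the groups no shared replicate numbers, so no paired analysis was made.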

Other observations

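Gm8210 was not the only processed pseudogene among the 8 genes called higher by edgeR at an adjusted p under 0.05 (25 were called lower). The 2 others were Gm7049 and Morf4l1-ps1, and these 3 were the only pseudogenes among the 33 called genes. Gm7049, on chromosome 13, was at 0.17, 0.22 and 0.20 CPM in control mice 1, 2 and 3 and at 21.4, 21.1 and 11.2 CPM in aPU.1KO mice 1, 2 and 3. Morf4l1-ps1, on chromosome 16, was at 0.32, 0.13 and 0.63 CPM in control mice 1, 2 and 3 and at 9.91, 13.3 and 14.5 CPM in aPU.1KO mice 1, 2 and 3. In each the groups were far apart, as for Gm8210.

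The protein-coding gene that each of the 3 matched best lay on chromosome 9, although the pseudogenes lie on 3 other chromosomes. Gm7049 matched Me1, which encodes cytosolic malic enzyme (98.4% identity, chr9:86581371-86695953, GRCm38). Morf4l1-ps1 matched Morf4l1, a chromatin protein (99.8% identity, chr9:90091665-90114774), and Gm8210 matched Rpl29 further along the same chromosome. Me1 had a log2 fold change of 0.23 (edgeR adjusted p = 0.532) and Morf4l1 of 0.054 (adjusted p = 0.675), so of these parents Rpl29 alone had a negative value. Of the other genes called higher, 3 (Bckdhb, Gsta4 and Zfp949) also lie on chromosome 9, between positions 78182774 and 88571061, where 784 of the 13925 tested genes are on that chromosome; 1 of the 25 genes called lower lies there too. This pattern was noticed after the values were seen, and its cause was not tested. Whether the sequence of chromosome 9 is the same in both groups was not tested either.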
